A study of Mus musculus with 12 samples.

Results

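The genes described here supply and load the peptides that MHC class I molecules carry to the cell surface, and they were measured in mouse pancreatic stellate cells (PSCs) grown alone or beside other cells. They are 10 of the 39179 genes in the table of counts, namely the class I heavy chains H2-K1 and H2-D1, their light chain B2m, the peptide transporter subunits Tap1 and Tap2, the loading factor Tapbp, the immunoproteasome subunits Psmb8, Psmb9 and Psmb10, and the transactivator Nlrc5. The 10 genes were chosen by symbol from a class I presentation list, with earlier results from the same libraries known, so their own levels and differences between cultures are given as a description. Counts of those called in fits across all genes stand beside the share of all genes called, and nothing is read from them.

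Over 72 h, mCherry-labelled PSCs grew by themselves (mono-PSCs), with EGFP-labelled pancreatic cancer cells (PCCs; 2W-PSCs), or with PCCs and TagBFP-labelled macrophages (MØs; 3W-PSCs). Cells that were mCherry+ and negative for EGFP and TagBFP were sorted, a gate that should leave out PCCs and MØs, and each culture gave 4 of the 12 libraries. All groups held the same SV40-immortalised line of C57BL/6 PSCs, the PCCs were a mouse pancreatic cancer line, and the MØs were RAW264.7, a mouse macrophage line. The series calls the 4 libraries of a culture biological replicates, but all PSCs descend from 1 line, so the spread between libraries is that between cultures of this line. The QuantSeq 3′ kit yields about 1 fragment per transcript, so CPM (counts scaled to library size by TMM over the 12 libraries) can be set side by side between genes without a correction for length. Library totals were 4561817 to 6907711 counts in 2W-PSCs, 7205488 to 8061367 in 3W-PSCs and 5286963 to 8093368 in mono-PSCs. The 2W-PSC and 3W-PSC totals did not overlap. Replicate 2 of the 2W-PSCs had the smallest total and stood apart from the other 2W-PSC libraries. Some results that rest on it are given with and without it.

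As background, proteasomes cut cytosolic proteins into peptides, and the TAP1–TAP2 transporter pumps these into the endoplasmic reticulum. Tapasin (Tapbp) holds empty class I molecules at the transporter until a peptide is bound, and B2m completes the molecule that CD8+ T cells inspect. Interferons are known to raise most of these genes, and under interferon-γ the catalytic subunits Psmb8, Psmb9 and Psmb10 replace Psmb5, Psmb6 and Psmb7 in newly built proteasomes. Nlrc5 is known as an activator of class I gene transcription.

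Of the 10 genes, 7 lie within 1352 kb of chromosome 17 on GRCm38, in or beside the major histocompatibility complex. Psmb9, Tap1, Psmb8 and Tap2 follow each other within 34.3 kb (chr17:34181987-34216321). Psmb9 and Tap1 are read in opposite directions from starts that RefSeq places 225 bases apart. H2-K1 (chr17:33996017-34000347, minus strand) and H2-D1 (chr17:35262730-35267499, plus strand) lie on the same chromosome, as does Tapbp (chr17:33915899-33929292, plus strand). B2m lies on chromosome 2 (chr2:122147686-122153083, plus strand), and Psmb10 (chr8:105935735-105938444, minus strand) and Nlrc5 (chr8:94434356-94527272, plus strand) lie on chromosome 8.

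RefSeq start sites on GRCm38.p6 were at hand for 8 of the 10 genes (not Tap2 and Nlrc5), and the 250 bases before each were searched on both strands for known letters. The interferon-stimulated response element was searched as GAAANNGAAA, the STAT site (GAS) as TTCNNNGAA, the NF-κB consensus by its name, and the inverted CCAAT box as ATTGG. The sequences are shown for the stretches that held a match to the response element, GAS or κB consensus, and those of Tap1, Tapbp, Psmb9 and Psmb10 held none. Each is written 5′ to 3′ on the gene's own strand, with matches to the response element, GAS or κB consensus in capitals. The first pair are the 150 bases before the start of H2-K1 (chr17:34000348-34000497, minus strand) and of B2m (chr2:122147537-122147686, plus strand). The others are 30 bases of H2-D1 (chr17:35262914-35262943, plus strand) and of Psmb8 (chr17:34198089-34198118, plus strand), which lie in exons of longer GENCODE transcripts.
H2-K1: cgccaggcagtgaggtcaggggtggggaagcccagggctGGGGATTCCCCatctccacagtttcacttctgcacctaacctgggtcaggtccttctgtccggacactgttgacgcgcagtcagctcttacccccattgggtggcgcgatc
B2m: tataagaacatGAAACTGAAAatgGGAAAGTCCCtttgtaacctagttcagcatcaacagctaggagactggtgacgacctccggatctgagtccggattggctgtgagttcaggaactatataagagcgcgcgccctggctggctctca
H2-D1: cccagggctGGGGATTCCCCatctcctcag
Psmb8: cctccgctgTTCCCAGAAgatgcccccccc

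The κB stretch of H2-D1 and the matching 30 bases of H2-K1 shared 29 of 30 bases, and in each the capitals hold 2 overlapping matches. The κB consensus was matched in 3 of the 8 promoters, against 7.01% of all 27025 RefSeq promoters. B2m held the 1 match to the letters of the response element, 139 to 130 bases before its start, and 3.04% of all promoters held one. Only exact matches to GAAANNGAAA were counted, so other forms of the element were not searched for in any promoter. Psmb8 held the 1 GAS match, 97 to 89 bases before its start, against 7.18% of all promoters. The CCAAT letters, not capitalised, were in 6 of the 8 and in 34.5% of all promoters. The matches of Tap1 and Psmb9 are the same site, read on opposite strands in the stretch between their starts. A match is a run of letters, and no binding was measured in these libraries.

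Across the 3 cultures the pattern was the same for nearly all of the genes: 3W-PSCs stood high, and 2W-PSCs stood with mono-PSCs. Genes were called by edgeR's quasi-likelihood test at a Benjamini-Hochberg adjusted p under 0.05. In 3W-PSCs against 2W-PSCs, 9 of the 10 genes were called higher and none lower, where 5.73% of all 11513 genes tested were called higher and 4.95% lower. The same 9 genes had every 3W-PSC library above every 2W-PSC library, as 11.6% of all genes did, and Psmb10 was the exception on both counts. In 3W-PSCs against mono-PSCs all 10 were called higher with no overlap between libraries, where 13.4% of 11551 genes were called higher, 13% were called lower and 13.9% were higher without overlap. In 2W-PSCs against mono-PSCs, 9 genes could be tested. With edgeR and with DESeq2 alike 0 of them were called, and 2 (Tap1 and Psmb10) had an unadjusted p under 0.05. There 0.839% of 11199 genes were called higher, 0.152% were called lower and 3.23% were higher without overlap, as 1 of the 10 (Tap1) was. Over the alternative fits of 3W-PSCs against 2W-PSCs, Tapbp was not called without 2W-PSC replicate 1 or 4 or any 1 of the 3W-PSC libraries, and Psmb10 was called with DESeq2 and without 2W-PSC replicate 2. The genes were chosen with these contrasts in view. The median log2 fold change of the genes was 2.58 in 3W-PSCs against 2W-PSCs, 2.80 against mono-PSCs and 0.16 in 2W-PSCs against mono-PSCs, beside medians of 0.0025, 0.012 and 0.020 over all genes tested. The comparisons share libraries and are not independent of each other.

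**Figure D1:**
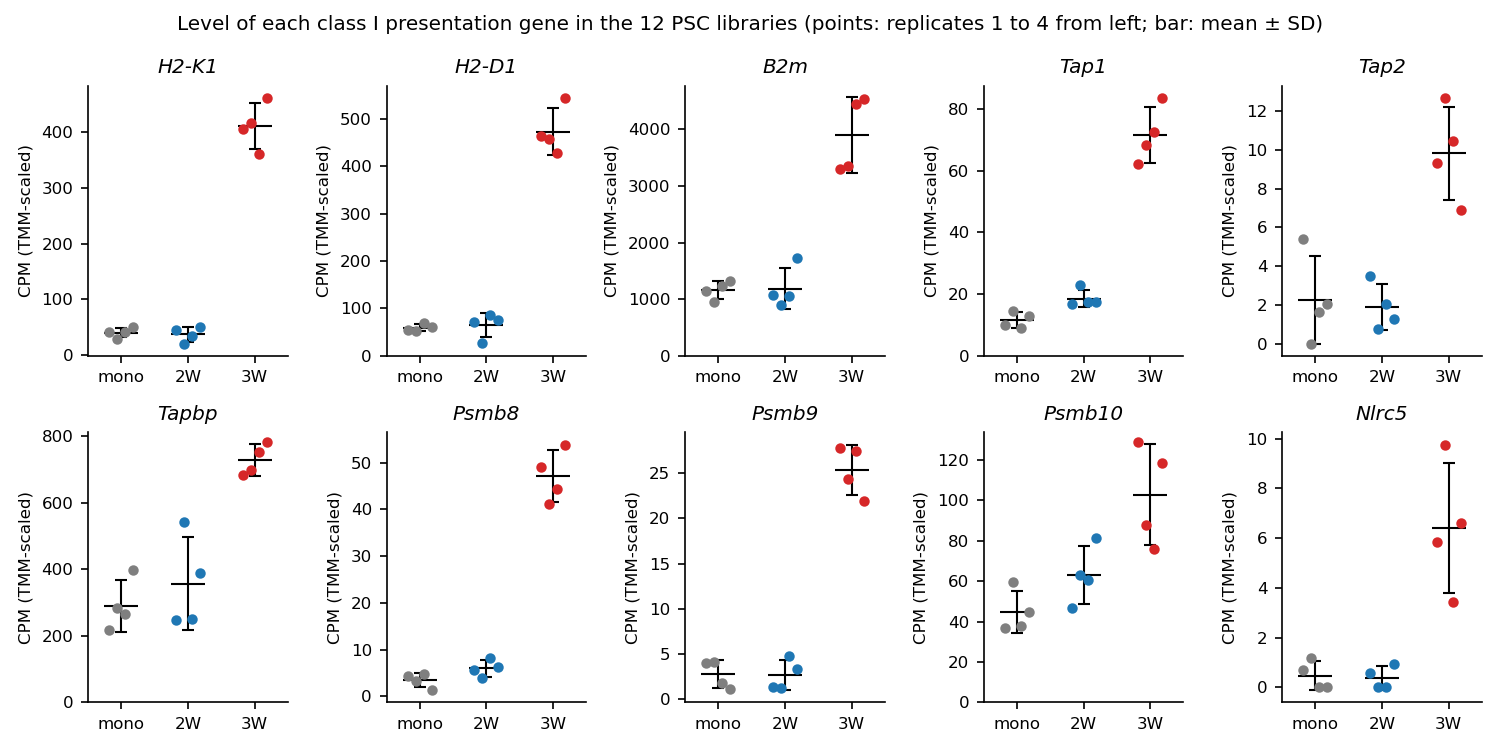
CPM of each of the 10 genes in the 12 libraries, 1 panel a gene, with a linear axis of its own; points are replicates 1 to 4 from left to right and bars are mean ± SD (n = 4). In every panel but that of Psmb10 the 4 red points of the 3W-PSCs sit above all points of the other cultures.

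The class I heavy chains present the peptide. H2-K1 stood at 41.9, 29.9, 40.9 and 50.6 CPM in mono-PSC replicates 1 to 4, at 45.3, 20.9, 34.1 and 50.6 in 2W-PSCs, and at 405, 416, 360.1 and 460.1 CPM in 3W-PSCs. The lowest 3W-PSC library was far above the highest of the other 8, which overlapped each other. The fitted log2 fold change of H2-K1 was 3.43 ± 0.26 (SE) in 3W-PSCs against 2W-PSCs, or 10.8-fold, 3.32 ± 0.18 against mono-PSCs, and -0.09 ± 0.27 in 2W-PSCs against mono-PSCs. H2-D1 stood at 55.5, 51.9, 69.7 and 60.0 CPM in mono-PSCs, at 70.6, 28.2, 86.4 and 75.4 in 2W-PSCs and at 463, 457, 428 and 543 in 3W-PSCs. As with H2-K1, the low and high libraries fell apart cleanly and replicate 2 was the lowest of the 2W-PSCs. The log2 fold change of H2-D1 was 2.85 ± 0.30 in 3W-PSCs against 2W-PSCs (7.22-fold), 2.99 ± 0.16 against mono-PSCs and 0.16 ± 0.29 in 2W-PSCs against mono-PSCs. Without replicate 2 of the 2W-PSCs the first value was 3.24 for H2-K1 and 2.60 for H2-D1. The share of H2-K1 in the counts of the 2 heavy chains was 40.6% ± 4.55 (SD, n = 4) in mono-PSCs, 37.5% ± 6.29 in 2W-PSCs and 46.5% ± 0.877 in 3W-PSCs. The heavy chains are a family of near copies, and 4.31% of the 75-base windows in the last 500 bases of H2-K1 and 10.09% of those of H2-D1 also occur in other genes.

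B2m, the light chain shared by all class I molecules, was the most abundant of the 10 genes in every culture. It stood at 1139.8, 945, 1229 and 1327 CPM in mono-PSCs, at 1078, 903, 1057 and 1723 in 2W-PSCs and at 3305, 3347, 4447 and 4529 in 3W-PSCs. Within 2W-PSCs, replicate 4 was the highest, and it still lay below all 3W-PSC libraries. The log2 fold change of B2m was 1.71 ± 0.24 in 3W-PSCs against 2W-PSCs (3.28-fold), 1.75 ± 0.18 against mono-PSCs and 0.06 ± 0.24 in 2W-PSCs against mono-PSCs. By mean CPM, B2m ranked 73 of 11776 genes in mono-PSCs, 67 in 2W-PSCs and 9 in 3W-PSCs. H2-D1 went from rank 2990 to 2746 and 227, and H2-K1 from rank 4062 to 4328 and 278. Together the 10 genes made up 1616 ± 218 CPM (SD, n = 4) in mono-PSCs, 1742 ± 405 in 2W-PSCs and 5781 ± 746 in 3W-PSCs. B2m held 71.8%, 68.3% and 67.6% of these sums.

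The transporter and loading factor come next in the pathway. Tap1 stood at 10.09, 14.7, 9.001 and 12.9 CPM in mono-PSCs, at 16.7, 22.8, 17.3 and 17.4 in 2W-PSCs and at 62.0, 68.4, 72.5 and 83.7 in 3W-PSCs. Tap1 was the only one of the 10 genes whose 3 cultures were separated in full, with every 2W-PSC library between the other cultures. Its log2 fold change was 1.95 ± 0.18 in 3W-PSCs against 2W-PSCs, 2.61 ± 0.20 against mono-PSCs and 0.69 ± 0.26 in 2W-PSCs against mono-PSCs, where it was not called. Tap2, the partner of Tap1 in the transporter, was near the detection limit outside 3W-PSCs, at 5.39, 0, 1.62 and 2.04 CPM in mono-PSCs, at 3.50, 0.737, 2.06 and 1.28 in 2W-PSCs and at 9.30, 12.7, 10.4 and 6.87 in 3W-PSCs. Its log2 fold change was 2.31 ± 0.44 in 3W-PSCs against 2W-PSCs and 2.08 ± 0.55 against mono-PSCs, and the former was 2.78 without 2W-PSC replicate 1. Tap2 made up 12.2% ± 3.35 of the Tap1 and Tap2 counts in 3W-PSCs and 15.9% ± 14.3 in mono-PSCs.

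Tapbp, which encodes tapasin, was abundant in all cultures, at 216, 282, 264 and 399 CPM in mono-PSCs, at 248, 543, 249.5 and 387 in 2W-PSCs and at 682, 697, 752 and 783 in 3W-PSCs. Here 2W-PSC replicate 2 was the highest of its culture, whereas it was the lowest for both heavy chains. The log2 fold change of Tapbp was 1.03 ± 0.25 in 3W-PSCs against 2W-PSCs (2.04-fold), 1.32 ± 0.18 against mono-PSCs and 0.32 ± 0.28 in 2W-PSCs against mono-PSCs. Without 2W-PSC replicate 2 the first was 1.30. It ranged from 0.88 to 1.30 over the alternative fits. On the other strand Tap1 shares 212 exonic bases with Psmb9, and Tapbp shares 904 with Gm19412, while Tapbp and Zbtb22 share 149 on the same strand. Whether reads were counted by strand is not given in the sources used here.

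The immunoproteasome subunits cut the peptides. Psmb8 stood at 4.35, 3.37, 4.68 and 1.32 CPM in mono-PSCs, at 5.60, 3.93, 8.25 and 6.23 in 2W-PSCs and at 49.0, 41.1, 44.4 and 53.8 in 3W-PSCs. Psmb9 stood at 4.00, 4.16, 1.80 and 1.08 CPM in mono-PSCs, at 1.40, 1.23, 4.76 and 3.35 in 2W-PSCs and at 27.8, 24.4, 27.5 and 21.9 in 3W-PSCs. For both genes all 8 libraries of the other cultures were in single digits and every 3W-PSC library was higher. The log2 fold change in 3W-PSCs against 2W-PSCs was 2.95 ± 0.24 for Psmb8 (7.73-fold) and 3.20 ± 0.38 for Psmb9 (9.21-fold). Against mono-PSCs it was 3.81 ± 0.29 for Psmb8 and 3.24 ± 0.34 for Psmb9. In 2W-PSCs against mono-PSCs, Psmb8 had 0.85 ± 0.47 and Psmb9 0.02 ± 0.61, with overlapping libraries.

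Psmb10 did not separate the cultures as its partners did. It stood at 36.9, 59.7, 38.0 and 44.8 CPM in mono-PSCs, at 46.7, 63.1, 60.6 and 81.3 in 2W-PSCs and at 129, 87.9, 75.9 and 118 in 3W-PSCs. The lowest 3W-PSC library lay below the highest 2W-PSC library, and Psmb10 already exceeded Psmb8 and Psmb9 in PSCs grown alone. Its log2 fold change was 0.70 ± 0.22 in 3W-PSCs against 2W-PSCs, 1.19 ± 0.20 against mono-PSCs and 0.51 ± 0.23 in 2W-PSCs against mono-PSCs.

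**Figure D2:**
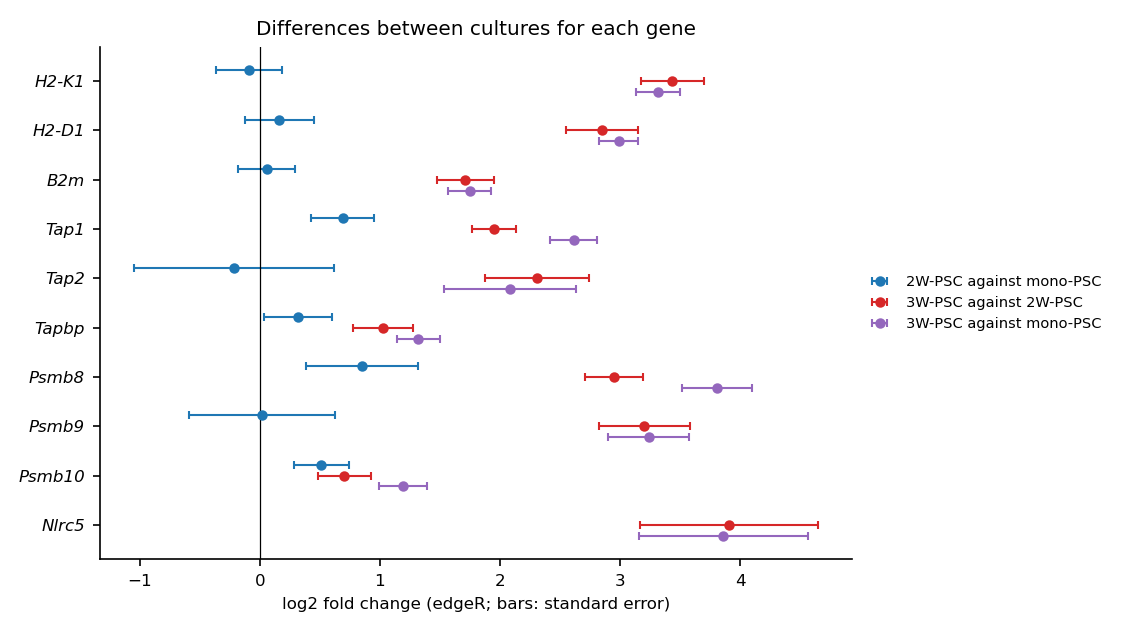
Fitted log2 fold changes of the 10 genes between cultures on the horizontal axis, with standard errors as bars; the 3 colours are the 3 comparisons, and Nlrc5 was too low to be tested in 2W-PSCs against mono-PSCs. Values for 3W-PSCs run from 0.70 for Psmb10 to 3.91 for Nlrc5 against 2W-PSCs, and those for 2W-PSCs against mono-PSCs run from -0.22 to 0.85.

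Each immunoproteasome subunit takes the place of a constitutive one, so its share of the pair's counts was computed per library. Psmb8 made up 15.4, 8.02, 9.25 and 3.33% of the Psmb8 and Psmb5 counts in mono-PSCs, 16.7, 17.6, 15.5 and 12.2% in 2W-PSCs and 66.6, 61.9, 63.7 and 68.1% in 3W-PSCs. Psmb8 had more counts than Psmb5 in all 3W-PSC libraries and in no other library. Psmb9 made up 2.41, 1.17, 0.620 and 0.396% of the Psmb9 and Psmb6 counts in mono-PSCs, 0.633, 0.353, 1.85 and 1.10% in 2W-PSCs and 15.8, 15.3, 16.6 and 11.99% in 3W-PSCs, so Psmb6 remained the larger of that pair everywhere. Psmb10 made up 25.7, 48.9, 28.3 and 40.8% of the Psmb10 and Psmb7 counts in mono-PSCs, 35.1, 69.1, 37.7 and 48.9% in 2W-PSCs and 55.4, 48.4, 49.0 and 54.9% in 3W-PSCs. Its cultures overlapped, and the highest share was that of 2W-PSC replicate 2, where Psmb7 was lowest. The mean shares in 3W-PSCs were 65.1% ± 2.82 (SD, n = 4) for Psmb8, 14.9% ± 2.02 for Psmb9 and 51.9% ± 3.76 for Psmb10. Of the 75-base windows at the 3′ end of Psmb5, 43.6% also occur in Gm3375, so its counts, and with them the first share, are uncertain.

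**Figure D3:**
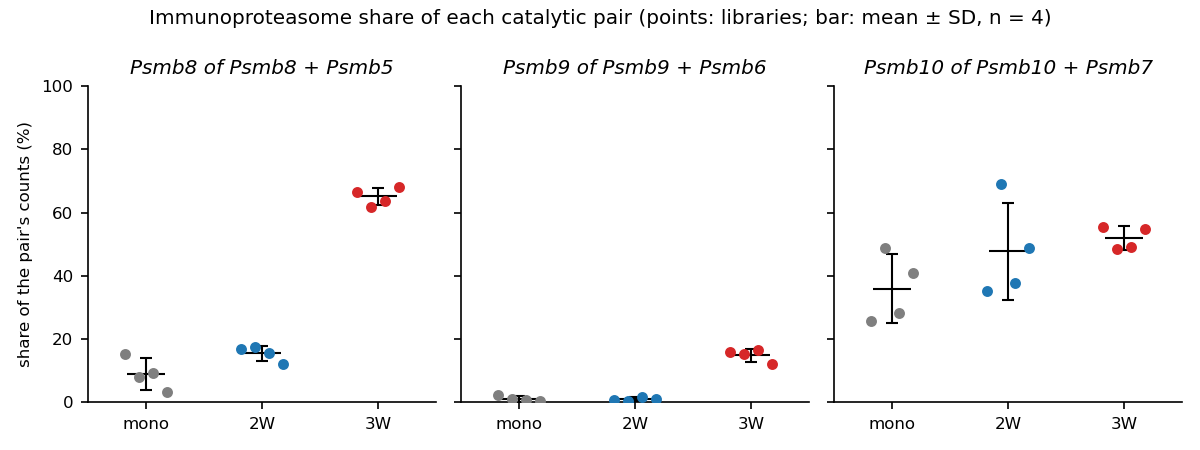
Share of each immunoproteasome subunit in the counts of its catalytic pair (%), by library, with mean ± SD (n = 4) as bars and the axis from 0 to 100. Psmb8 reaches 61.9 to 68.1% in 3W-PSCs, Psmb9 reaches 11.99 to 16.6%, and the cultures overlap for Psmb10.

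The constitutive partners are no members of the group of 10 and were tested, although they too were listed with earlier results known. Psmb6 stood at 162, 352, 289 and 272 CPM in mono-PSCs, at 219.8, 347, 253 and 302 in 2W-PSCs and at 148, 135, 138 and 161 in 3W-PSCs, and every 3W-PSC library was the lower. Psmb6 fell by 0.95 on the log2 scale in 3W-PSCs against 2W-PSCs (SE 0.18, edgeR adjusted p = 0.00689) and by 0.88 against mono-PSCs (adjusted p = 0.00226), and was called in all 15 alternative fits of each. Psmb5 and Psmb7 were not called in 3W-PSCs against 2W-PSCs, Psmb5 having -0.45 ± 0.27 (adjusted p = 0.319) and Psmb7 0.31 ± 0.31 (adjusted p = 0.564). Without 2W-PSC replicate 2 Psmb5 was called lower, at -0.65 (adjusted p = 0.0276). Against mono-PSCs Psmb5 was called lower, with -0.55 ± 0.20 (adjusted p = 0.0472), and Psmb7 was not, with 0.17 ± 0.18 (adjusted p = 0.527). That call of Psmb5 was kept in only 4 of 15 alternative fits, with adjusted p up to 0.175. Among the fits that lost it were those without mono-PSC replicate 2, 3 or 4 or any 1 of the 3W-PSC libraries. Of the 11 other subunits of the proteasome core, 2 were called lower and none higher in 3W-PSCs against 2W-PSCs, Psma7 with -0.73 ± 0.17 (adjusted p = 0.0179) and Psmb1 with -0.65 ± 0.15 (adjusted p = 0.0197). DESeq2 called 4 of the 11 lower and 0 higher, beside 885 lower and 903 higher of 17876 genes. The median of these 11 was -0.38, against 0.0025 over all genes. Psma7 kept its call in 10 of 15 alternative fits and Psmb1 in 9 of 15, with largest adjusted p of 0.0687 and 0.0875. The libraries whose omission ended the call were 2W-PSC replicate 4 and 3W-PSC replicates 2, 3 and 4 for Psma7, and 2W-PSC replicate 4 and each 3W-PSC library for Psmb1, and the replicate block also ended both. Against mono-PSCs 5 of the 11 were called lower. Of all genes tested, 5.73% were called higher and 4.95% lower against 2W-PSCs, and 13.4% higher and 13% lower against mono-PSCs. Neither gene of the interferon-inducible PA28 activator was called in 3W-PSCs against 2W-PSCs, Psme1 having 0.27 ± 0.17 (adjusted p = 0.347) and Psme2 0.45 ± 0.38 (adjusted p = 0.488). There, with edgeR and with DESeq2 alike, 0 of the 10 genes for proteasome assembly and activators were called, and 0 had an unadjusted p under 0.05. Against mono-PSCs 1 of the 10 was called higher and none lower, Psme1 with 0.52 ± 0.15 (edgeR adjusted p = 0.0158) and no overlap between libraries. It was not called without mono-PSC replicate 4 or 3W-PSC replicate 4 or with all 12 libraries in one fit, with adjusted p up to 0.0597. Psme2 ran from 13.8 to 65.9 CPM in 2W-PSCs. Since 26.2% of the windows at its 3′ end also occur in Psme2b, its counts are uncertain.

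Nlrc5, the transactivator of class I genes, was the least abundant of the 10 genes in each culture. It was counted 4, 6, 0 and 0 times in mono-PSC replicates 1 to 4, 4, 0, 0 and 6 times in 2W-PSCs and 44, 84, 27 and 51 times in 3W-PSCs, or 5.85, 9.75, 3.43 and 6.61 CPM in the last. In 4 of the 8 libraries without MØs it was at 0, which allows up to 3 counts, and all 3W-PSC libraries lay above them. The log2 fold change was 3.91 ± 0.74 against 2W-PSCs and 3.86 ± 0.70 against mono-PSCs. In both comparisons it was the largest of the 10 and also the one with the widest error. It ranged from 3.49 to 4.75 over 14 alternative fits against 2W-PSCs, and the highest value was that without 2W-PSC replicate 4. In 3W-PSCs Nlrc5 ranked 9327 of 11776 genes.

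Other class I genes were measured beside these. Of 18 further class I heavy chains in the table, 4 were abundant enough to test and 3 were called higher in 3W-PSCs against 2W-PSCs. In that comparison 5.73% of all genes tested were called higher and 4.95% lower. The Qa-2 gene H2-Q7 had 0 counts in all 8 libraries of mono-PSCs and 2W-PSCs and 23, 12, 18 and 20 counts in 3W-PSCs, at least 4.42-fold higher against a floor of 3 counts per library (edgeR adjusted p = 0.00549). H2-Q4 had 3, 2, 0 and 0 counts in 2W-PSCs and 45, 77, 67 and 64 in 3W-PSCs, at least 15.03-fold higher on the same floor (adjusted p = 8.8e-04). H2-T22 stood at 26.9, 2.702, 34.6 and 15.2 CPM in 2W-PSCs and at 54.3, 59.6, 88.0 and 73.4 in 3W-PSCs, and the log2 fold change was 1.77 ± 0.50 (adjusted p = 0.0454). That call was kept in 9 of 15 alternative fits and lost without 2W-PSC replicate 1 or 4 or any 1 of the 3W-PSC libraries, with adjusted p up to 0.133. The log2 fold change of H2-T22 ran from 1.42 to 2.16 over these fits, and 2W-PSC replicate 2 was its lowest library. H2-M3, with 1.08 ± 0.48, was not called (adjusted p = 0.185). Of the windows at the 3′ ends, 19.6% of those of H2-T22 also occur in H2-T10 and 12.2% of those of H2-Q4 in other genes, so reads of these family members may be counted together. Of 5 class I-like molecules tested none was called higher, and the antibody receptor Fcgrt, whose product also pairs with B2m, was called lower with -0.77 ± 0.16 (adjusted p = 0.0134). Without 3W-PSC replicate 1 or 2 Fcgrt was not called, with adjusted p up to 0.0588.

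Most partners of the loading complex were not called. Of 8 genes for loading partners and peptide trimming in the endoplasmic reticulum, 1 was called higher and none lower in 3W-PSCs against 2W-PSCs. It was Erap1, the aminopeptidase that trims peptides to length, at 3.30, 4.96, 5.94 and 5.89 CPM in mono-PSCs, at 3.50, 1.96, 4.44 and 6.39 in 2W-PSCs and at 11.4, 14.5, 14.5 and 16.3 in 3W-PSCs. Its log2 fold change was 1.77 ± 0.33 against 2W-PSCs (edgeR adjusted p = 0.00736) and 1.49 ± 0.27 against mono-PSCs (adjusted p = 6.3e-04), and all libraries were apart. The median of the 8 was -0.21, and of all genes tested against 2W-PSCs 5.73% were called higher and 4.95% lower. DESeq2 called 1 of the 8 higher and 1 lower, beside 903 higher and 885 lower of 17876 genes. Of 6 cytosolic peptidases, Tpp2 with 0.69 ± 0.18 (adjusted p = 0.0349) and Npepps with 0.58 ± 0.16 (adjusted p = 0.0423) were called higher, kept in 9 of 15 and 6 of 15 alternative fits, and none was called lower. Both calls were lost without 2W-PSC replicate 4 or any 1 of the 3W-PSC libraries, and with the replicate block. That of Npepps was also lost without 2W-PSC replicate 3, with no filter and with all 12 libraries in one fit, with adjusted p up to 0.119 for Tpp2 and 0.123 for Npepps.

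Among 13 transcription factors known to act on class I promoters, 4 were called higher and none lower in 3W-PSCs against 2W-PSCs, with a median log2 fold change of 0.40. The shares over all genes tested were 5.73% higher and 4.95% lower. Irf1, an interferon-regulated activator, stood at 50.9, 65.4, 64.4 and 70.6 CPM in mono-PSCs, at 77.8, 32.7, 78.7 and 99.5 in 2W-PSCs and at 159, 159, 142 and 167 in 3W-PSCs. Its log2 fold change was 1.11 ± 0.27 against 2W-PSCs (edgeR adjusted p = 0.0262) and 1.31 ± 0.15 against mono-PSCs (adjusted p = 4.8e-06). The former call was lost without 2W-PSC replicate 1 or any 1 of the 3W-PSC libraries, with adjusted p up to 0.0791, and the latter was kept in all alternative fits. Against 2W-PSCs the log2 fold change of Irf1 ran from 0.87 to 1.30 over the alternative fits, and 2W-PSC replicate 2 was its lowest library. The NF-κB gene Nfkb1 had 1.03 ± 0.29 (adjusted p = 0.0454) and Rfx5, which binds the X box of class I promoters, 0.97 ± 0.27 (adjusted p = 0.0432). These 2 calls were kept in only 7 of 15 and 6 of 15 alternative fits, with adjusted p up to 0.129 and 0.140. Both were lost without 2W-PSC replicate 1 or 4 or any 1 of the 3W-PSC libraries, that of Nfkb1 also with all 12 libraries in one fit and with scaling that left out the most abundant gene, and that of Rfx5 also without 2W-PSC replicate 3, with DESeq2's size factors and with the replicate block. Rela, the NF-κB subunit p65, was the fourth, with 0.63 ± 0.18 (adjusted p = 0.0466). Its call was kept in only 4 of 15 alternative fits and was lost without 2W-PSC replicate 1, 3 or 4 or any 1 of the 3W-PSC libraries, with DESeq2's size factors, no filter, the replicate block and scaling that left out the most abundant gene, with adjusted p up to 0.138.

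Of 11 genes of the interferon receptor pathway, 3 were called higher and none lower in 3W-PSCs against 2W-PSCs, and 7 higher and none lower against mono-PSCs. The shares of all genes called higher were 5.73% and 13.4%, and of those called lower 4.95% and 13%. Jak2, a kinase bound to cytokine receptors, stood at 29.9, 28.7, 17.3 and 26.3 CPM in mono-PSCs, at 29.98, 24.3, 20.3 and 26.99 in 2W-PSCs and at 93.0, 119, 57.5 and 67.7 in 3W-PSCs. Every 3W-PSC library was above the other 8, which overlapped each other. Its log2 fold change was 1.73 ± 0.25 in 3W-PSCs against 2W-PSCs (edgeR adjusted p = 0.00157). Stat2, which carries the type I interferon signal to DNA, had 1.19 ± 0.16 (adjusted p = 9.4e-04) and the receptor gene Ifnar2 1.09 ± 0.16 (adjusted p = 0.00199). The interferon-γ receptor gene Ifngr1 was not called, with 0.03 ± 0.17 (adjusted p = 0.927). Ifngr2, the gene of the other chain of that receptor, was not among the 3 called either, but all its 3W-PSC libraries were higher. It stood at 38.7 to 52.0 CPM in mono-PSCs, at 40.3 to 78.4 in 2W-PSCs and at 91.8 to 101.0 in 3W-PSCs. The 7 interferon genes looked up, among them Ifng and Ifnb1, had 0 counts in all 12 libraries, which allows up to 3 counts a library, and interferon made by PCCs or MØs was not measured in sorted PSCs.

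**Figure D4:**
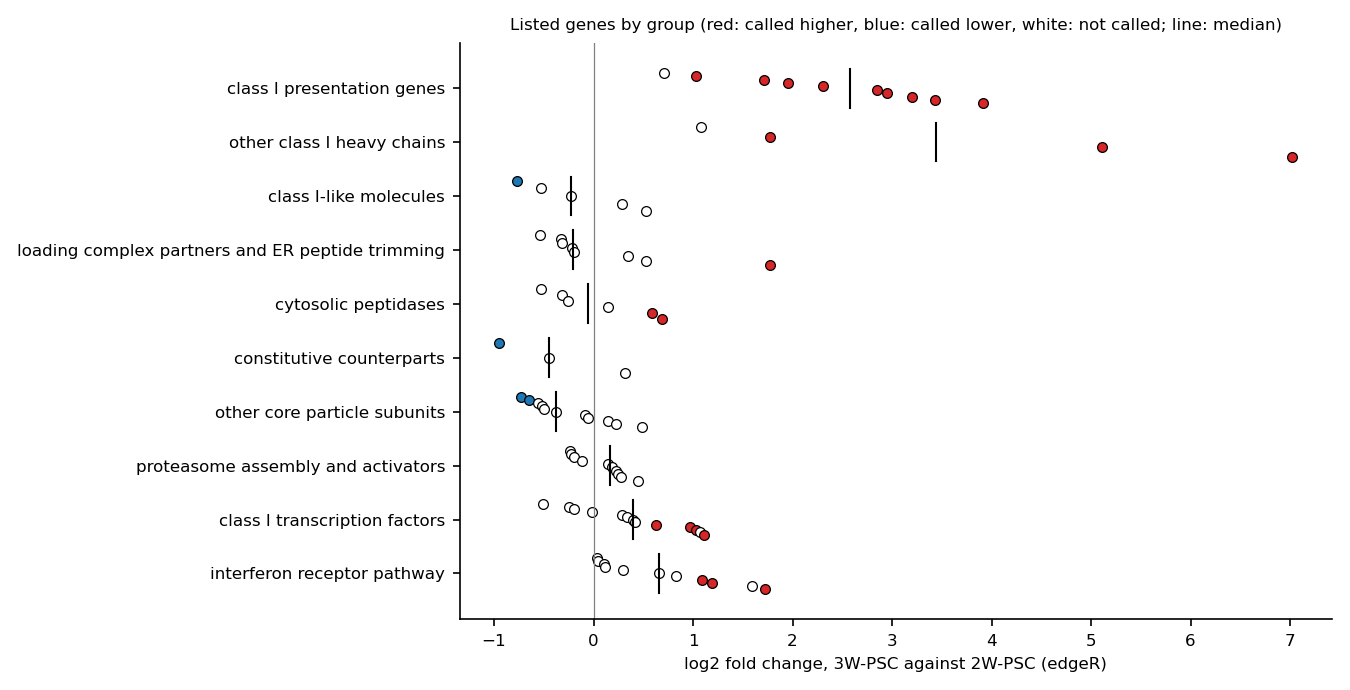
Fitted log2 fold change in 3W-PSCs against 2W-PSCs of each tested gene, by list; red points were called higher, blue lower and white not called, and the black line is the list's median. The points farthest right, H2-Q7 and H2-Q4, are fitted against counts at or near 0. The class I presentation genes lie to the right of 0 throughout, while the core proteasome subunits lie mostly to the left, with medians of 2.58 and -0.38.

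Class II presentation, the pathway of professional antigen-presenting cells, was low throughout, with the 7 genes looked up summing to 7.65 to 14.5 CPM in mono-PSCs, to 6.30 to 12.3 in 2W-PSCs and to 11.03 to 18.2 in 3W-PSCs. Of the 3 that could be tested in 3W-PSCs against 2W-PSCs, 0 were called by edgeR, 1 had an unadjusted p under 0.05 and 1 was called higher by DESeq2. It was Cd74, the invariant chain of class II molecules, at 2.96, 2.58, 1.80 and 2.88 CPM in mono-PSCs, at 1.40, 4.42, 0.952 and 1.92 in 2W-PSCs and at 6.64, 6.50, 3.43 and 12.2 in 3W-PSCs. The difference on the log2 scale was 1.78 ± 0.54 against 2W-PSCs (edgeR adjusted p = 0.0567), where it was called in 4 of 14 alternative fits, among them that without 2W-PSC replicate 2. Against mono-PSCs Cd74 was called higher, with 1.47 ± 0.41 (adjusted p = 0.0139) and no overlap, but not without 3W-PSC replicate 4, at 1.10 (adjusted p = 0.0892).

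The genes whose course over the 12 libraries was most like that of the 10 were found by z-scoring log2 CPM and taking the mean absolute difference from the mean profile of the 10, over 8693 genes. The nearest were Gbp2 at 0.119, Rsad2 at 0.131, Tmem176b at 0.136, Herc6 at 0.139, Ifit1 at 0.160, Cxcl10 at 0.173, Ifnar2 at 0.174 and Nsg1 at 0.175, where the median gene was at 1.08. The 10 genes themselves were at 0.167 for H2-D1 to 0.497 for Tap2. Mean levels of Gbp2, an interferon-inducible GTPase, were 15.8 CPM in mono-PSCs, 19.2 in 2W-PSCs and 138 in 3W-PSCs. Those of the T cell chemoattractant gene Cxcl10 were 12.1, 16.4 and 359 CPM. These genes were selected from the same 12 libraries for their likeness, which is therefore a description.

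RNA of the other cells in the co-cultures was looked for with marker genes, because MØs also express class I genes. PSC identity was plain, with 10 fibroblast markers summing to 8102 to 10362 CPM in mono-PSCs, to 9285 to 10069 in 2W-PSCs and to 5406 to 6622 in 3W-PSCs. Of the 9 that could be tested, 5 were called lower in 3W-PSCs against 2W-PSCs, led by Col3a1 with -1.74 ± 0.21, S100a4 with -1.59 ± 0.18 and Dcn with -0.98 ± 0.24 (edgeR adjusted p = 5.4e-04, 4.5e-04 and 0.0262), and Pdgfra was called higher with 1.26 ± 0.22 (adjusted p = 0.00522). Dcn was not called without 2W-PSC replicate 1 or 4 or 3W-PSC replicate 3 or 4. At the 3′ end of S100a4, 44.8% of the 75-base windows also occur in Gm42674, so its counts are uncertain. In 3W-PSCs against 2W-PSCs 5.73% of all genes tested were called higher and 4.95% lower. The 12 macrophage markers summed to 2.43 to 8.52 CPM in mono-PSCs, to 4.15 to 11.8 in 2W-PSCs and to 13.0 to 52.5 in 3W-PSCs, so they moved with the class I genes. Of the 4 that could be tested, Cd53 was called higher in 3W-PSCs against 2W-PSCs, with 2.45 ± 0.40 (adjusted p = 0.00355). The macrophage marker Emr1 was at 0 in all 12 libraries and the leukocyte gene Ptprc was at 0 in all but 2, the 3W-PSC replicates 3 and 4 with 6 and 20 counts. Between 1 and 3 of the 12 markers were at 0 in a 3W-PSC library, and between 5 and 7 in the other libraries. Replicate 4 of the 3W-PSCs had the highest sum, with 75 counts of Laptm5 and 107 of Lyz2, and the other 3W-PSC libraries had 13.0 to 18.9 CPM. In those 3 libraries H2-K1 stood at 360.1 to 416 CPM and B2m at 3305 to 4447 CPM, and without replicate 4 the log2 fold change against 2W-PSCs was 3.38 in place of 3.43 for H2-K1 and 1.64 in place of 1.71 for B2m. Over the 10 genes it then ran from 0.63 for Psmb10 to 3.90 for Nlrc5, lower than with all 4 libraries for 8 of the 10 and higher for Tap2 and Psmb9. The part of MØ RNA in the difference was not tested.

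The 10 epithelial markers summed to 0.481 to 2.43 CPM in mono-PSCs, to 74.3 to 145 in 2W-PSCs and to 50.2 to 88.5 in 3W-PSCs. They were above mono-PSCs in both co-cultures. The part of PCC RNA in the differences between cultures was not tested.

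**Figure D5:**
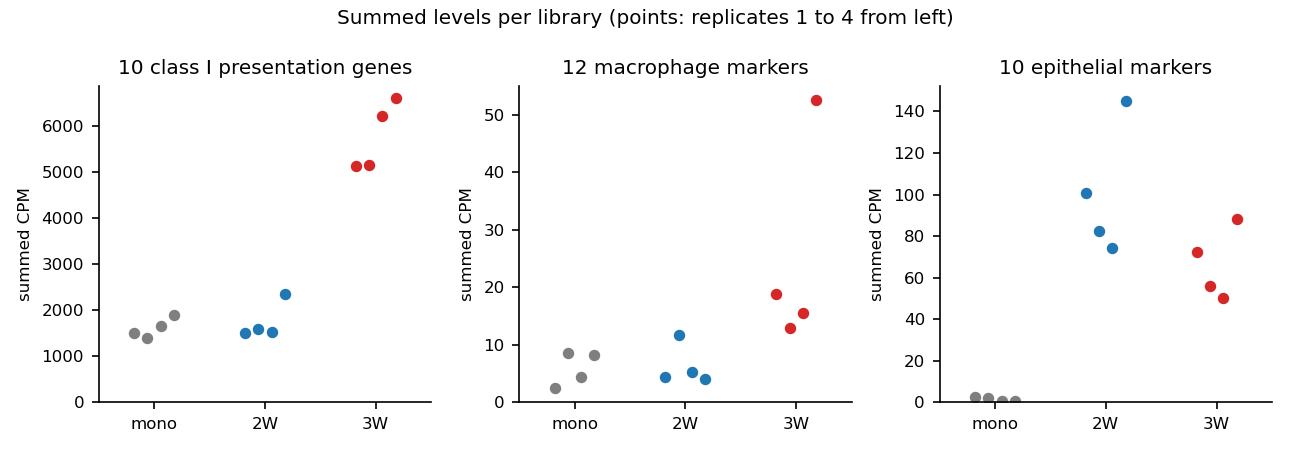
Summed CPM per library of the 10 class I presentation genes (left), 12 macrophage markers (middle) and 10 epithelial markers (right), by culture; points are replicates 1 to 4 from left to right, and all axes start at 0. The class I sums are 5138 to 6606 CPM in 3W-PSCs, beside macrophage marker sums of 13.0 to 52.5 CPM, and the epithelial sums are highest in 2W-PSCs.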

How the data were processed

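RNA of sorted PSCs was measured in 12 libraries, 4 per culture. Per the study's methods, the authors used the QuantSeq 3′ FWD kit, trimmed single-end reads, ran STAR against GRCm38 and summed reads per gene with featureCounts on the Ensembl annotation. DESeq2 and FastQC are also named in the submitters' processing notes. The deposited values are whole-number counts per gene with no normalisation, whereas the methods call them normalised. Molecular identifiers are not named in the sources used here, so counts may include PCR copies, and statements on depth cover counting error only. Symbols in the table write a hyphen as a low line and were matched after replacing it, with identifiers checked. All 12 columns were matched to samples by their sample numbers, and 0 columns were left out.

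Counts were scaled by TMM in edgeR 4.0.16 under R 4.3.3, filtered with filterByExpr and compared in pairs of cultures, 8 libraries at a time, with glmQLFit and glmQLFTest. Benjamini-Hochberg adjustment ran over every gene of a fit, and genes under 0.05 were called. Standard errors were derived from the quasi-likelihood F statistic. The edgeR test was tested on simulated data drawn from these libraries. A fold against a culture with at most 3 counts in every library is a lower bound on 3 counts per library. Positions come from GENCODE M21 on GRCm38, where all 46 genes looked up were found, and sequences from RefSeq on GRCm38.p6.

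The 10 genes and the 15 lists were chosen with earlier results of these data known. Genes named are the 10, up to 3 called higher and 3 called lower per list with the largest change in 3W-PSCs against 2W-PSCs, Psmb5, Psmb6, Psmb7, Psme1, Psme2 and Irf1, and the 8 genes most alike in profile with a mean log2 CPM above 3. Rela, Ifngr1, Ifngr2, H2-M3, Ptprc, Cd74, Emr1, Laptm5 and Lyz2 were named after their values were seen. A gene of the interferon receptor list is not reported here. Alternatives were DESeq2's size factors in edgeR, no filter, a minimum of 10 counts per library, a joint fit of the 12 libraries, a replicate block, omission of 1 library at a time, DESeq2 1.42.0, and scaling that left out the most abundant gene.

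Replicate numbers are shared across cultures in the labels. Deviations from culture means correlated between same-numbered libraries by -0.048 to 0.338, over 0.1 in 5 of 12 pairs. Between 2W-PSCs and mono-PSCs these correlations ran from 0.099 to 0.338. The main fits did not pair libraries, and the replicate block was run as an alternative.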

Additional observations from a re-analysis of the deposited data

Results flagged for a closer look

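Of 42 groups of 4 libraries examined, 2 held a library whose gap to its neighbour exceeded Dixon's critical value, and chance flags about 1 in 20 such groups. The total of mono-PSC replicate 4 was 8093368 counts, against 5286963 to 5674558 in the other mono-PSC libraries. Tap1 stood at 22.8 CPM in 2W-PSC replicate 2, against 16.7 to 17.4 CPM in the other 2W-PSC libraries. Without that library the log2 fold change of Tap1 in 3W-PSCs against 2W-PSCs was 2.06 in place of 1.95.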

How the results depend on the processing

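The number of genes called in 3W-PSCs against 2W-PSCs was 1230, and 752 with the replicate block, and it ran from 497 to 2107 when each library was left out in turn, highest without 2W-PSC replicate 2 and lowest without 3W-PSC replicate 2. In 2W-PSCs against mono-PSCs it was 111, and it was 177 with no filter, 57 with at least 10 counts in every library, 262 with all 12 libraries in one fit, 277 with DESeq2 and 61 to 233 when each library was left out. In 3W-PSCs against mono-PSCs it stayed within 1.5 times of 3054 in the alternatives run. Of the 10 genes, 8 to 10 were called higher in 3W-PSCs against 2W-PSCs over these fits, except with the minimum of 10 counts, where 6 of the 7 left were, and the replicate block left the number at 9. No sign of a called fold change turned in these alternatives. Ifngr1, which was not called, had a log2 fold change of -0.045 to 0.14 in 3W-PSCs against 2W-PSCs when each library was left out. The cause of these changes was not tested. Same-numbered libraries correlated best with each other in 7 of 12 cases. Whether cultures of the same number were grown together is not stated in the sources used here. Depth limited Nlrc5, Tap2 and Psmb9 outside 3W-PSCs, where single counts move a fold change.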
